A study of Mus musculus with 10 samples.

Results

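The genes described here are 10 of the 57825 genes in the deposited expression table: the guanylate-binding proteins Gbp2, Gbp3, Gbp4, Gbp5, Gbp6 and Gbp7, the immunity-related GTPases Irgm1, Irgm2 and Igtp, and Irf1. They were chosen by name as genes that interferon-gamma (IFN-γ) is known to induce, and each name was listed once. Irf1 is a transcription factor and no GTPase, so that the set holds 9 GTPases. RNA was sequenced from purified CD8+ T cells in 2 groups of 5 samples, CD8+4T1 and CD8+4T1+NaAc. The T cells came from spleens of female Balb/c mice aged 7 to 8 weeks. In both groups they spent 12 h on plates coated with anti-CD3, in the presence of anti-CD28 at 1 µg/ml and IL-2 at 15 ng/ml, kept for a further 24 h and then co-cultured with 4T1 cells, a mouse mammary carcinoma line, for 48 h, and the labels give day 3. The CD8+4T1+NaAc cells differed by 5 mM sodium acetate (NaAc), added for the 24 h before co-culture. The comparison asks how acetate changes the RNA of T cells that meet tumor cells. All samples had thus been activated and had met 4T1 cells, and no sample without IFN-γ is analysed here, so that induction of the genes by IFN-γ was not measured. The sources do not say whether replicates came from separate animals, and p-values measure the spread between these samples.

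IFN-γ is released by activated CD8+ T cells and acts back on them as well as on their targets. It binds a receptor made of Ifngr1 and Ifngr2, the kinases Jak1 and Jak2 pass the signal on, and a first wave of genes that includes Irf1 is switched on. Irf1 then helps to drive the interferon-inducible GTPases. The guanylate-binding proteins are large GTPases of the dynamin superfamily that coat vacuoles and bacteria inside cells, and Gbp5 is also known for promoting inflammasome assembly. Of the smaller immunity-related GTPases, Irgm1, Irgm2 and Igtp (also called Irgm3) are regulators that sit on the cell's own membranes and keep the effector GTPases, such as Iigp1, inactive there. In T cells these genes are commonly read as a sign that IFN-γ is being sensed.

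Promoters of the members were searched for matches to sequence elements through which this pathway is known to act. They are shown because a match to either element was found for each member that could be searched. RefSeq promoter windows (GRCm38.p6, 250 bases before to 50 bases after a gene's start) were at hand for 8 of the 10 members, all but Gbp4 and Gbp6. They were searched on either strand for a GAAA repeat, that is GAAA, any 2 bases and GAAA again, the core of the element bound by interferon regulatory factors, and for TTCNNNGAA, a palindrome that is the core of the gamma-activated site. Capitals mark the matches. The bases before the start of Gbp5 (chr3:142496684-142496933, plus strand, bases -250 to -1) held one of the former and a pair of the latter.
Gbp5: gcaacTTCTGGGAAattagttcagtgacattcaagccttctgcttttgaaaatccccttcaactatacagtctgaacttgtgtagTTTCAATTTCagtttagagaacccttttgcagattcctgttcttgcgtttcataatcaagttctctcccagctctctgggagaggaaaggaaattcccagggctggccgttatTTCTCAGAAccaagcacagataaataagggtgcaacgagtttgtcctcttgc

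The 80 bases about the matches are given for the other 7 members with a window. Those of the chromosome 3 genes are Gbp7 (chr3:142530221-142530300, plus strand), Gbp3 (chr3:142559966-142560045, plus strand) and Gbp2 (chr3:142620568-142620647, plus strand). Those of the chromosome 11 genes are Irgm1 (chr11:48871404-48871483, minus strand), Irf1 (chr11:53769888-53769967, plus strand), Igtp (chr11:58199481-58199560, plus strand) and Irgm2 (chr11:58214872-58214951, plus strand).
Gbp7: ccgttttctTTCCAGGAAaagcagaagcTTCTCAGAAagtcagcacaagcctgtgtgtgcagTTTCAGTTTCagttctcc
Gbp3: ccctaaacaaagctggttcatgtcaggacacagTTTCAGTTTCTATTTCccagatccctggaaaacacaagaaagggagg
Gbp2: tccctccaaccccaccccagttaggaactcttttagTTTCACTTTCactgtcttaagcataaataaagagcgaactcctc
Irgm1: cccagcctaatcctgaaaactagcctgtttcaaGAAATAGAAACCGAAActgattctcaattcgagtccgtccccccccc
Irf1: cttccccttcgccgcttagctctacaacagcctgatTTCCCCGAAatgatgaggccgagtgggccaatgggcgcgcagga
Igtp: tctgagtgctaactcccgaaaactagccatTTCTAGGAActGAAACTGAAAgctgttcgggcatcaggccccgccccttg
Irgm2: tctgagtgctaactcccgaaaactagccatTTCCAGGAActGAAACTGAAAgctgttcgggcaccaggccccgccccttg

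A GAAA repeat was found for 7 of the 8 members with a window, all but Irf1, whereas 3.44% of all 32851 promoter windows of this length held one. A match to TTCNNNGAA was found for Gbp5, Gbp7, Irf1, Igtp and Irgm2, against 8.30% of all windows. Counted by window, as for all genes, 7 of the 10 windows of these 8 members held a GAAA repeat and 5 held TTCNNNGAA. Gbp3 and Irf1 each had a further window, which held neither. Windows with both made up 0.454% of the total and included those of Gbp5, Gbp7, Igtp and Irgm2. In Gbp3 and Irgm1 a pair of GAAA repeats overlapped each other. The windows of Igtp and Irgm2 shared an identical run of 61 bases downstream of their matches, and in both genes TTCNNNGAA lay just ahead of the GAAA repeat. Matching letters describe these windows only, and no binding was measured. Gbp5, which fell with NaAc, and Igtp, which did not pass the test, thus held the same kinds of match.

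Levels were deposited as FPKM, which divide the fragments of a gene by its length and by the depth of the sample, so that genes can be compared per length. They refer to between 16306447 and 18853726 fragments per sample. T cell markers were present in every sample, with Cd8a at 76.0 to 81.9 FPKM in CD8+4T1 and 72.2 to 81.6 in CD8+4T1+NaAc, and their sum over 10 genes was 837.6 to 932.7 and 765.0 to 873.2 FPKM. None of the 10 passed the test as higher and 5 as lower. The summed level of 15 markers of 4T1 or epithelial cells was 23.0 to 32.1 FPKM in CD8+4T1 and 79.2 to 186.2 in CD8+4T1+NaAc, with 5 of the 9 tested higher and none lower. Of the markers of other cells, Cd4 and the fibroblast gene Pdgfra (1 of 2 tested) were higher, with log2 fold changes of 1.44 and 2.32. Of 4 tested myeloid markers 1 was called, Lyz2 at 0.96, and their summed level over 8 genes was 26.3 to 35.9 and 27.2 to 31.3 FPKM. None of 2 tested B cell markers was called. No marker was at 0 in all 10 samples. CD8+4T1+NaAc replicate 1 stood apart, since 20233 of its genes were above 0 FPKM where the other 4 samples of its group had 24681 to 25088, and results that rest on it are given with and without it.

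Igtp was by far the most abundant member. In CD8+4T1 it was at 216.8, 236.5, 256.7, 252.1 and 252.1 FPKM in replicates 1 to 5, with a mean of 242.8 ± 16.5 (SD, n = 5). Gbp2 followed at 79.3 ± 4.59 and Irf1 at 55.6 ± 2.42, and the ranges of these 3 genes did not overlap with each other or with that of the next gene. Gbp5 (40.0 ± 2.43), Gbp7 (38.8 ± 2.39), Gbp4 (35.3 ± 1.55) and Gbp3 (32.6 ± 1.56) formed a middle group in which the ranges of neighbours overlapped. Irgm2 (25.2 ± 1.65) and Irgm1 (24.2 ± 1.41) lay below them and overlapped each other. Gbp6 was the lowest at 1.79 ± 0.44 FPKM. Within CD8+4T1 the replicates of a member thus varied little, with SDs of 4.35% to 6.78% of the mean for 9 members and 24.4% for Gbp6. The fragments behind a value ranged from 6325 to 9850 for Igtp and from 128 to 248 for Gbp6.

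With NaAc the upper end of this order stayed Igtp (241.7 ± 34.1 FPKM), Gbp2 (71.4 ± 11.2) and Irf1 (55.1 ± 5.45), and the ranges of Gbp2 and Irf1 then overlapped. The middle of the order changed. Gbp4 moved from the 6th to the 4th place at 43.1 ± 5.35 FPKM, and Gbp5 from the 4th to the 7th at 26.2 ± 3.69. From Gbp4 down to Irgm1 the ranges of neighbours all overlapped. The 9 GTPases together summed to 480.6 to 541.1 FPKM in CD8+4T1 and 391.3 to 538.2 in CD8+4T1+NaAc, where the lowest sum was that of replicate 1 and the other 4 samples lay at 502.8 or above.

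**Figure D1:**
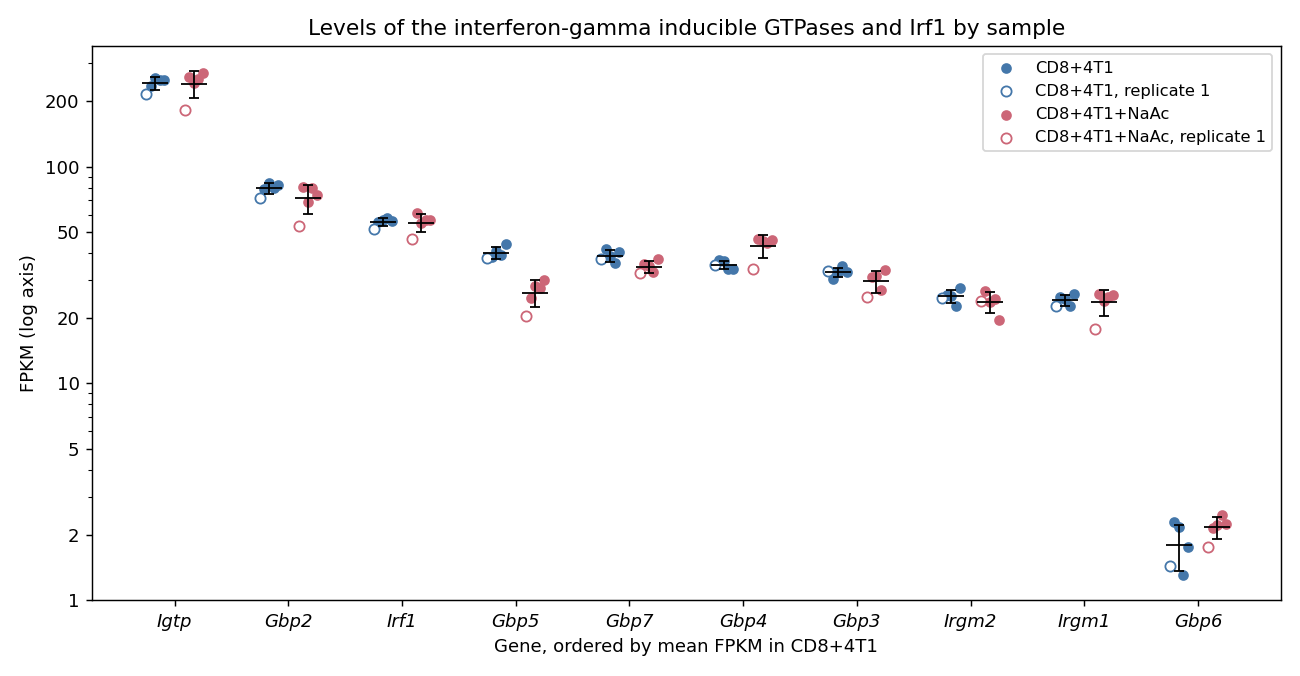
FPKM of the 10 genes in each sample on a log axis, ordered by their mean in CD8+4T1, with CD8+4T1 in blue and CD8+4T1+NaAc in red. Horizontal lines are group means, error bars are SD (n = 5) and open circles are replicate 1 of each group; the open red circle is the lowest of its group for 9 of the 10 genes, and Gbp5 is the gene whose groups do not overlap.

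The members were compared between the groups in a limma fit of log2(FPKM + 0.1) to all 15710 genes whose mean reached 0.5 FPKM, and a call required a p under 0.05 after Benjamini-Hochberg adjustment over these genes. All 10 members passed the filter on low values. Of these, 3 were called, Gbp4 as higher and Gbp5 and Gbp7 as lower, and 7 were not. Over all genes tested 36.5% were called, 17.6% as higher and 19% as lower, so that 3 of 10 is close to the share among all genes. It was 2 of 10 without CD8+4T1+NaAc replicate 1, against 44.3% of all genes, and with any other sample left out 1 or 2. The median log2 fold change was -0.07 over the members and -0.02 over all genes tested. The groups did not overlap for 1 member, Gbp5, against 26.4% of all genes. In bulk RNA, fewer cells of a type and less RNA per cell cannot be told apart.

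Gbp5 (chromosome 3, plus strand) showed the largest difference among the members. It was at 37.9, 38.3, 40.8, 39.3 and 43.9 FPKM in CD8+4T1 and at 20.5, 24.8, 28.2, 27.6 and 30.0 FPKM in CD8+4T1+NaAc. Every NaAc sample was below every sample without NaAc. The mean fell by 34.5%, with a log2 fold change of -0.62 (SE 0.09, 95% interval -0.83 to -0.41, limma adjusted p = 0.000571). An exact permutation test of this gene alone, two-sided, gave p = 0.00794, the smallest that 5 against 5 samples allow. Without CD8+4T1+NaAc replicate 1, the lowest of its group, the log2 fold change was -0.53 (limma adjusted p = 0.000121). Scaled to the T cell markers it was -0.44 (limma adjusted p = 0.000893), and the part of the 4T1 markers in it was not tested otherwise.

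Gbp4 (chromosome 5, minus strand) went the other way. It was at 35.1, 37.0, 36.7, 33.9 and 33.6 FPKM in CD8+4T1 and at 33.6, 46.2, 45.6, 44.5 and 45.8 FPKM in CD8+4T1+NaAc. Replicate 1 of the NaAc group lay just below the lowest sample without NaAc, and the other 4 lay above all 5 of them. The mean rose by 22.3%, with a log2 fold change of 0.28 (SE 0.09, 95% interval 0.09 to 0.47, limma adjusted p = 0.0254, exact permutation p = 0.0476). Without CD8+4T1+NaAc replicate 1 the groups did not overlap, and the log2 fold change was 0.37 (limma adjusted p = 8.15e-05). The call was lost when any of CD8+4T1 replicates 4 and 5 or CD8+4T1+NaAc replicates 2 to 5 was left out, with adjusted p-values of 0.0564 to 0.0614. The part of the higher 4T1 markers in the rise of Gbp4 was not tested.

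Set side by side, Gbp4 and Gbp5 changed places. The ratio of Gbp4 to Gbp5 was 0.77 to 0.97 in the 5 CD8+4T1 samples, where Gbp5 was the higher of the pair in each. It was 1.53 to 1.86 in the 5 CD8+4T1+NaAc samples, where Gbp4 was the higher in each, replicate 1 included at 1.64. The ratio does not depend on how a sample was scaled. It is given as a description, since the pair was picked for its opposite calls. For comparison, the ratio of Igtp to Irgm2 was 9.67 ± 0.90 (SD, n = 5) in CD8+4T1 and 10.3 ± 2.22 in CD8+4T1+NaAc. The ratio of Gbp7 to Gbp5 was 0.91 to 1.09 in CD8+4T1 and 1.18 to 1.56 in CD8+4T1+NaAc, also without overlap.

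**Figure D2:**
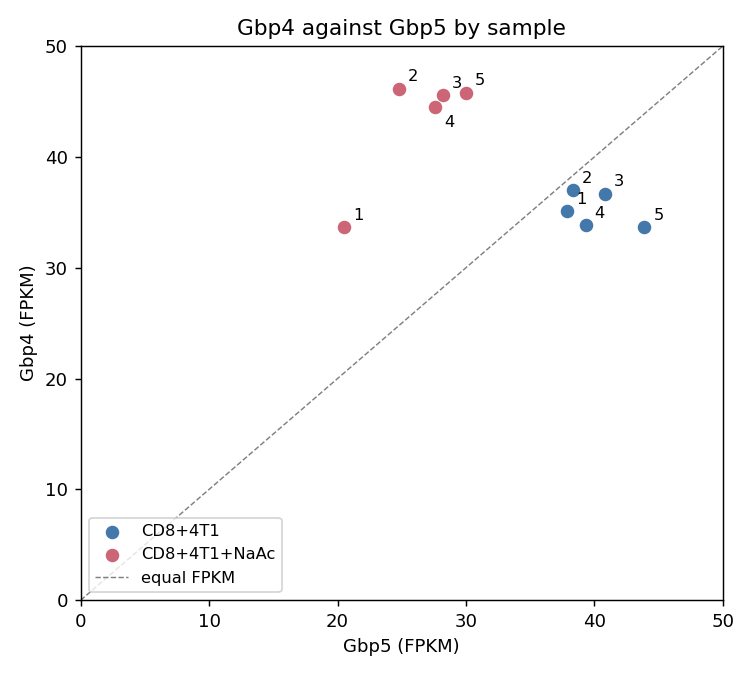
FPKM of Gbp4 against FPKM of Gbp5 in each of the 10 samples, numbered by replicate, with the line of equal FPKM dashed. The 5 CD8+4T1 samples (blue) lie below the line with ratios of 0.77 to 0.97, and the 5 CD8+4T1+NaAc samples (red) lie above it with ratios of 1.53 to 1.86.

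Gbp7 (chromosome 3, plus strand), the neighbour of Gbp5, passed the test by a small margin. It was at 37.3, 41.9, 38.7, 35.8 and 40.3 FPKM in CD8+4T1 and at 32.1, 35.5, 34.7, 32.5 and 37.6 FPKM in CD8+4T1+NaAc. The groups overlapped, since the highest NaAc sample exceeded the lowest samples without NaAc. The means were 38.8 ± 2.39 and 34.5 ± 2.27, with a log2 fold change of -0.17 (SE 0.06, 95% interval -0.30 to -0.04, limma adjusted p = 0.0469, exact permutation p = 0.0238). The call was lost when any sample was left out other than CD8+4T1 replicate 4 or CD8+4T1+NaAc replicate 5, with adjusted p-values of 0.0548 to 0.109, and at a common total or on the T cell marker scale the fold change was 0.01. No difference in Gbp7 thus held across scalings.

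The remaining guanylate-binding proteins did not pass the test. Gbp2 was at 71.8 to 83.7 FPKM in CD8+4T1 and 53.3 to 80.4 in CD8+4T1+NaAc, with a log2 fold change of -0.16 (95% interval -0.40 to 0.07, limma adjusted p = 0.252). Gbp3 was at 30.3 to 34.7 and 25.1 to 33.3 FPKM, with -0.15 (95% interval -0.32 to 0.02, limma adjusted p = 0.166). Without CD8+4T1+NaAc replicate 1 the log2 fold change of Gbp2 was -0.063 (limma adjusted p = 0.431) and that of Gbp3 was -0.089 (limma adjusted p = 0.276). Gbp6 was at 1.44, 2.30, 2.16, 1.305 and 1.75 FPKM in CD8+4T1 and 1.76, 2.16, 2.22, 2.46 and 2.26 in CD8+4T1+NaAc, with a log2 fold change of 0.29 (95% interval -0.08 to 0.65, limma adjusted p = 0.200). It was 0.187 without CD8+4T1 replicate 4 (limma adjusted p = 0.396) and 0.194 with a pseudocount of 1 (limma adjusted p = 0.206).

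The immunity-related GTPases and Irf1 did not pass the test either. Igtp was at 182.9, 258.4, 243.9, 253.4 and 269.8 FPKM in CD8+4T1+NaAc, and its log2 fold change was -0.02 (95% interval -0.24 to 0.21, limma adjusted p = 0.912). Irgm1 was at 22.7 to 26.0 FPKM in CD8+4T1 and 17.9 to 25.7 in CD8+4T1+NaAc, with -0.04 (95% interval -0.25 to 0.18, limma adjusted p = 0.782). In both genes the other 4 NaAc samples lay well above replicate 1, at 243.9 FPKM or more for Igtp and 24.1 or more for Irgm1, and without replicate 1 their log2 fold changes were 0.080 and 0.058. Irgm2 was at 22.9 to 27.4 and 19.6 to 26.7 FPKM, with -0.09 (95% interval -0.27 to 0.08, limma adjusted p = 0.399), and it was at -0.10 without CD8+4T1+NaAc replicate 1 and at -0.026 without replicate 5, the lowest of that group. Irf1, the factor upstream of the GTPases, was at 51.5 to 57.8 and 46.2 to 60.9 FPKM, with -0.02 (95% interval -0.17 to 0.14, limma adjusted p = 0.875), and without CD8+4T1+NaAc replicate 1 it was at 0.045. The groups overlapped for all of these 4 genes, and changes within their intervals are not excluded.

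**Figure D3:**
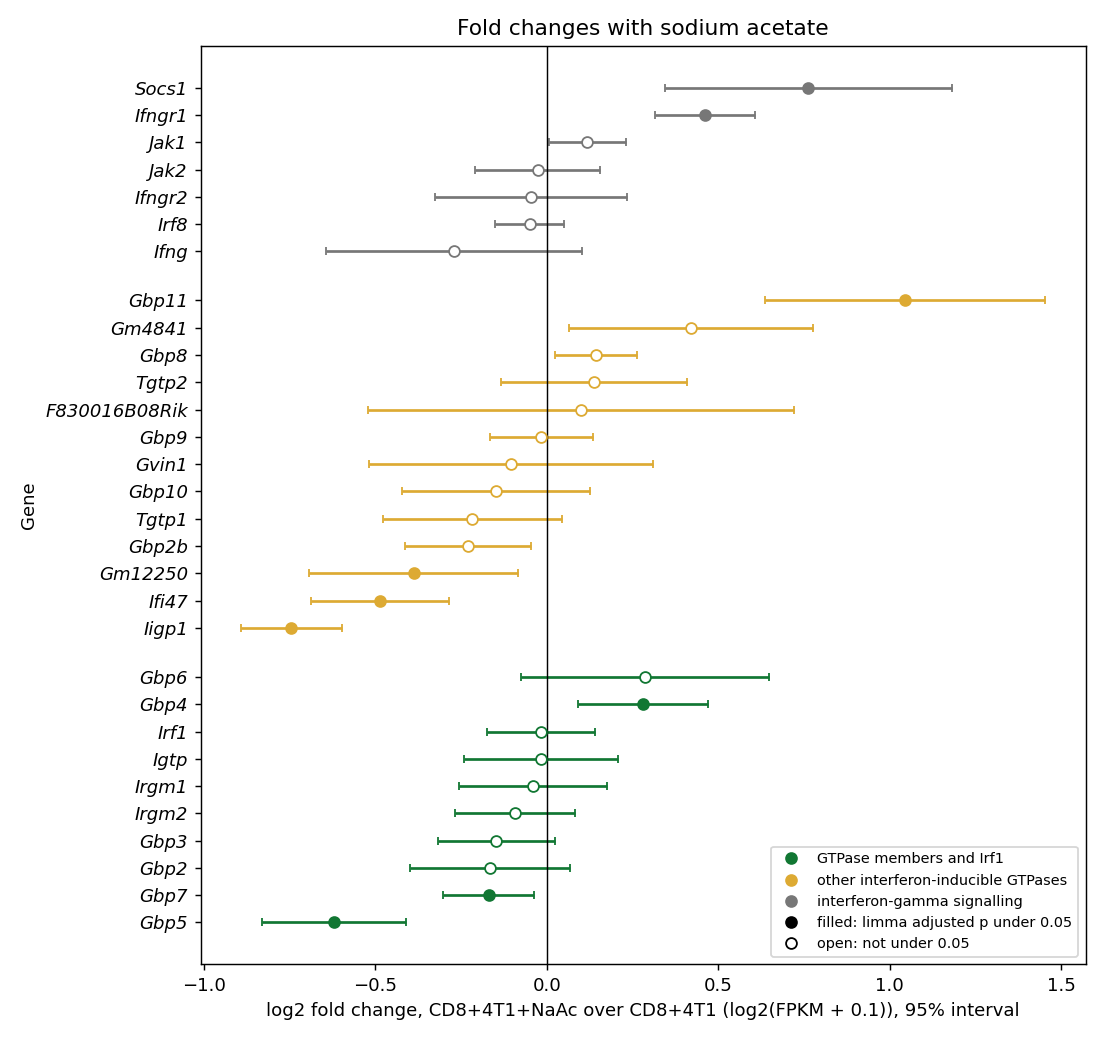
Log2 fold changes of CD8+4T1+NaAc over CD8+4T1 on the log2(FPKM + 0.1) scale with 95% intervals, for the 10 genes (green), the other interferon-inducible GTPases tested (yellow) and 7 IFN-γ signalling genes (grey). Filled points have a limma adjusted p under 0.05; among the 10 genes these are Gbp4 at 0.28, Gbp7 at -0.17 and Gbp5 at -0.62.

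How the libraries are scaled matters for these small differences. The listed genes held 95.5% to 97.9% of the fragments in CD8+4T1 and 89.8% to 92.1% in CD8+4T1+NaAc. When each sample was scaled to the same total FPKM, or to the 10 T cell markers, the median of all genes tested moved from -0.02 to 0.15, and all members moved with it. At the same total, Gbp5 was at -0.44 (limma adjusted p = 0.0029), Gbp4 at 0.46 (limma adjusted p = 0.00122) and Gbp6 at 0.46 (limma adjusted p = 0.0424), so that 3 members were again called, 2 higher and 1 lower. The fold changes of Gbp2, Gbp3, Gbp7, Irgm1, Irgm2, Igtp and Irf1 changed sign there and lay between 0.01 and 0.16. At the same total 31.2% of all genes were called higher and 8.83% lower, together 40%. On the T cell marker scale 3 members were called, 2 higher and 1 lower, against 37.1% of all genes, 29.2% higher and 7.86% lower. Voom on the recovered fragments called 2 members (Gbp4 and Gbp5) and 38.8% of all genes, array weights 3 and 48.3%, and a block for the replicate number 3 and 34.4%. Relative to the median of all genes, Gbp5 thus lay below and Gbp4 above under either scaling.

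**Figure D4:**
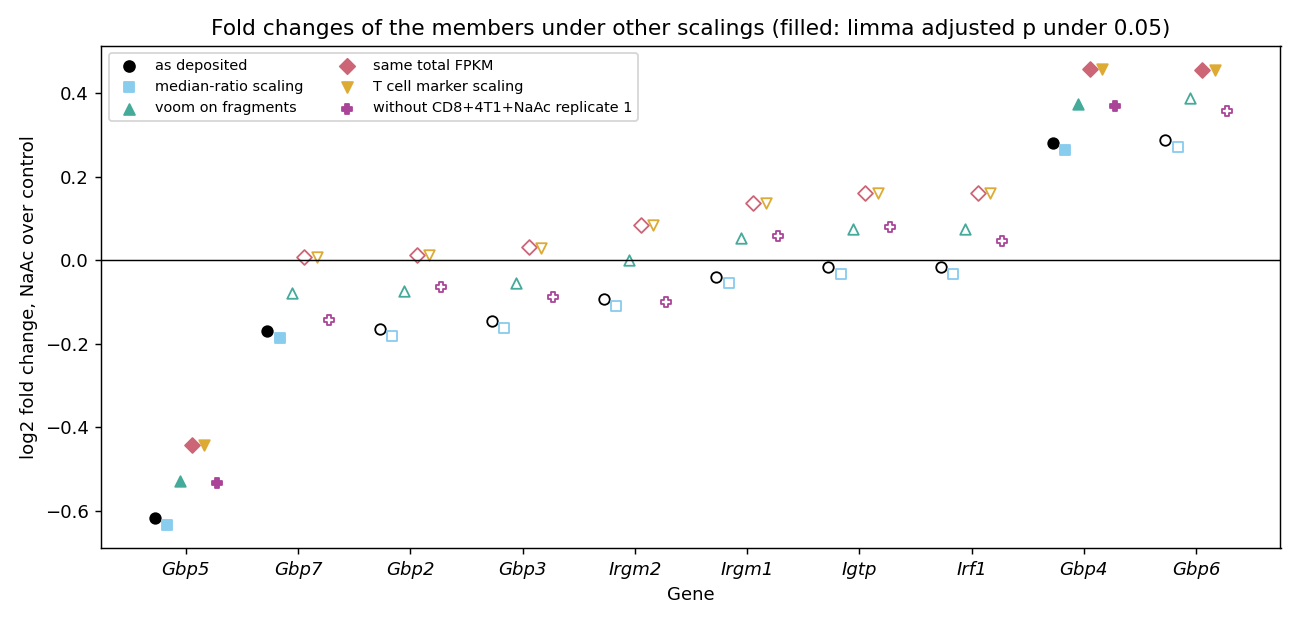
Log2 fold change of each of the 10 genes as deposited, under 3 other scalings, with voom on the fragments recovered from the FPKM, and without CD8+4T1+NaAc replicate 1; filled symbols have a limma adjusted p under 0.05. Gbp5 lies between -0.64 and -0.44 and Gbp4 between 0.26 and 0.46 in every case, while the other 7 genes apart from Gbp6 cross 0.

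The members lie on 3 chromosomes, and the Gbp genes among them in 2 clusters. On chromosome 3 the table lists Gbp5 (chr3:142199739-142228105), Gbp7 (chr3:142236103-142255910), Gbp3 (chr3:142265787-142278970), Gbp2b and Gbp2 (chr3:142326363-142343769) in this order. All 5 had log2 fold changes below 0, with a median of -0.17, and Gbp2b was at -0.23 (limma adjusted p = 0.0517). On chromosome 5 it lists Gbp8, Gbp9, Gbp4 (chr5:105263633-105287452), Gbp10, Gbp6 (chr5:105418568-105441564) and Gbp11, of which 4 were above 0 and 2 below, with a median of 0.21. At the same total, the chromosome 3 genes were 2 below and 3 above 0 with a median of 0.01 and the 6 chromosome 5 genes all above 0 with a median of 0.39, against 0.15 for all genes. The median was thus higher on chromosome 5 under both scalings, while the sign on chromosome 3 changed, and single genes of the clusters lay side by side, such as Gbp10 at -0.15 and Gbp3 at -0.15. This was seen after the values were known and is given without a test. The positions are those of the deposited table, whose build is not given in the sources used here and is not GRCm38.

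The chromosome 11 members are Irgm1 (chr11:48752795-48762510), Irf1 (chr11:53660841-53669200), Igtp (chr11:58090382-58098417) and Irgm2 (chr11:58090444-58113608). Their log2 fold changes lay between -0.09 and -0.02. Some members share positions with other genes, and for these the counting decides where a fragment goes. Igtp and Irgm2 overlap over 7974 bases on the same strand. Gbp4 overlaps Gbp8 and Gbp9 on the same strand over almost all of its listed length, 23774 and 23773 bases. These 2 genes had log2 fold changes of 0.14 and -0.02, neither of them called on the deposited scale. At the same total Gbp8 was called as higher, at 0.32 (limma adjusted p = 0.00122), and Gbp9 was at 0.16 (limma adjusted p = 0.0870). Of the distinct 100-base stretches of a Gbp6 transcript 82.9% also occur in the overlapping gene Gm43302, so the value of Gbp6 is uncertain. The same holds for Gbp10, which is no member but entered the count of the chromosome 5 cluster, with 70.9% found in other genes. For Gbp7 the share was 10.2%, mostly in the pseudogene Gm43802, which it overlaps over 637 bases and which was listed at 0 FPKM. For Gbp4, Gbp5 and Igtp the share found in any other gene was 2.88%, 0% and 5.67%. All these shares refer to a single GENCODE transcript per gene. It had 4538 bases for Gbp4 and 3055 for Gbp5, against deposited gene lengths of 7494 and 6637 bases. The remaining bases of these genes were not searched. Irf1 lies opposite Gm17334 over 3144 bases, and without a known strand setting their fragments cannot be told apart; Gm17334 was at 3.71 and 3.40 FPKM.

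Within the groups the members tended to move together, and did so less without CD8+4T1+NaAc replicate 1. Over 10 samples, after the mean of each group was subtracted, the 45 pairs of members had a median Pearson r of 0.59, and 39 were above 0. The closest pairs were Gbp2 with Irf1 at 0.96 and Gbp2 with Igtp at 0.94, and the least alike were Gbp3 with Irgm2 at -0.47. Without CD8+4T1+NaAc replicate 1 the median over 9 samples was 0.19, and 30 pairs were above 0. Gbp2 with Irf1 was then at 0.82. CD8+4T1+NaAc replicate 1 was the lowest of its group for 9 of the 10 members, Irgm2 being the exception. These values are descriptions, since all genes of a sample share its library and depth.

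The 5 protein-coding genes outside the lists whose deviations were most like the mean of the members, among 10545 candidates, were Nit2, Eif3i, Elp2, Upp1 and Atp5c1. Their r over 10 samples was 0.98 to 0.99, and without CD8+4T1+NaAc replicate 1 it was 0.87 to 0.92. Nit2 encodes an amidase, Eif3i a subunit of a translation initiation factor, Upp1 uridine phosphorylase and Atp5c1 a subunit of the mitochondrial ATP synthase. Nit2 was called as lower with NaAc, with a log2 fold change of -0.34 (limma adjusted p = 0.0441). The call was lost without any of CD8+4T1 replicates 2 to 5 or CD8+4T1+NaAc replicates 3 and 4, and at the same total, where Nit2 was at -0.16 (limma adjusted p = 0.267). The other 4 were not called, with log2 fold changes of -0.26 for Eif3i, -0.12 for Elp2, -0.20 for Upp1 and 0.04 for Atp5c1. When CD8+4T1+NaAc replicate 1 was left out, Nit2 was called at -0.22 (limma adjusted p = 0.011) and Eif3i at -0.16 (limma adjusted p = 0.0349). Upp1 was then at -0.10, Elp2 at 0.014 and Atp5c1 at 0.13. Eif3i was also called without CD8+4T1+NaAc replicate 2 and without replicate 1 of both groups. It passed as well at a mean of at least 5 FPKM, with array weights and with the replicate block. Upp1 was called with array weights (limma adjusted p = 0.0451) and without replicate 1 of both groups (limma adjusted p = 0.0477).

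The interferon-inducible GTPases outside the set were likewise called in both directions. Of 15 names 14 were listed and 13 passed the filter, and 4 of these were called, 1 as higher and 3 as lower, with a median of -0.10. This stands beside 36.5% of all genes called, 17.6% as higher and 19% as lower. Gbp11, of the chromosome 5 cluster, rose from 1.38 ± 0.43 to 2.85 ± 0.24 FPKM (SD, n = 5), with a log2 fold change of 1.04 (SE 0.18, limma adjusted p = 0.00134). It rested on 40 to 144 fragments per sample, and the part of the higher 4T1 markers in its rise was not tested. Iigp1, the effector that Irgm1, Irgm2 and Igtp hold in check, fell from 29.0 ± 2.00 to 17.3 ± 1.33 FPKM, with a log2 fold change of -0.74 (SE 0.07, limma adjusted p = 3.12e-05). Ifi47 was at -0.49 (limma adjusted p = 0.00194), without overlap between groups. Gm12250 was at -0.39 (limma adjusted p = 0.0478), and its call was lost without any of CD8+4T1 replicates 1, 2, 3 and 5 or CD8+4T1+NaAc replicates 2 and 4. Without CD8+4T1+NaAc replicate 1, 7 of the 13 were called, 3 higher and 4 lower, against 44.3% of all genes. With totals made equal 5 were called, 3 higher and 2 lower, against 40% of all genes, and Gm12250 was not among them. The groups did not overlap for 5 of the 13, against 26.4% of all genes, and of these Gbp2b and Gbp8 were not called on the deposited scale.

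Genes of the pathway that leads to the members were called in both directions, 9 of 20, with 5 higher and 4 lower and a median log2 fold change of -0.04. Of all genes 17.6% were called higher and 19% lower. With totals made equal 7 were higher and 3 lower, against 31.2% and 8.83% of all genes. The ligand gene Ifng was abundant and variable, at 459.5, 512.3, 477.2, 395.0 and 560.3 FPKM in CD8+4T1 and 551.8, 315.2, 400.6, 473.4 and 296.8 in CD8+4T1+NaAc. Its groups overlapped, and its log2 fold change was -0.27 (95% interval -0.64 to 0.10, limma adjusted p = 0.243). It was -0.39 without CD8+4T1+NaAc replicate 1 (limma adjusted p = 0.0564), -0.16 without CD8+4T1+NaAc replicate 5 (limma adjusted p = 0.463), and at the same total -0.091 (limma adjusted p = 0.722). CD8+4T1+NaAc replicate 1, the lowest of its group for most members, was the highest for Ifng. Of the receptor genes, Ifngr1 rose from 26.6 ± 1.27 to 36.7 ± 3.45 FPKM (log2 fold change 0.46, limma adjusted p = 0.000383) and Ifngr2 was at 4.65 ± 0.83 and 4.47 ± 0.53 FPKM and was not called. The kinase genes were not called on the deposited scale, with log2 fold changes of 0.12 for Jak1 and -0.03 for Jak2. Jak1 was called as higher at the same total, at 0.30 (limma adjusted p = 0.00225), and without CD8+4T1+NaAc replicate 1, at 0.14 (limma adjusted p = 0.0348).

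Among the factors, Irf8 was at -0.05 and was not called. Irf2, which competes with Irf1 for the same sites, fell with a log2 fold change of -0.50 (limma adjusted p = 0.000294). The genes of 2 feedback inhibitors of signalling rose, Socs1 and Socs3. Socs1 went from 10.8 ± 3.34 to 18.0 ± 2.82 FPKM (log2 fold change 0.76, limma adjusted p = 0.00936). Socs3 went from 11.9 ± 3.01 to 26.3 ± 6.07 FPKM (log2 fold change 1.13, limma adjusted p = 0.0011). Ptpn2 and Ptpn6 of the same list fell, at -0.34 (limma adjusted p = 0.000815) and -0.40 (limma adjusted p = 5.91e-05), without overlap between groups. Tbx21, the T-bet gene that drives Ifng in T cells, fell from 53.4 ± 2.62 to 35.8 ± 2.88 FPKM (log2 fold change -0.58, limma adjusted p = 7.55e-05). Among the signalling genes named, Ifngr1, Socs1 and Socs3 were thus higher and Irf2, Tbx21, Ptpn2 and Ptpn6 lower. Igtp, Irgm1 and Irf1 were not called in either direction. The 4T1 markers given before were also higher with NaAc, and their part in the changes of these signalling genes was not tested.

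Other known IFN-γ targets, which are no GTPases, were also called in both directions. Of 16 genes 13 were tested and 9 called, 4 as higher and 5 as lower, with a median of -0.04, beside 17.6% and 19% of all genes. With totals made equal 4 were higher and 3 lower, against 31.2% and 8.83% of all genes. Those higher were at low levels apart from Nlrc5. Cxcl9, a chemokine gene, was at 0.27 ± 0.15 and 1.38 ± 0.92 FPKM (log2 fold change 1.89), Batf2 at 0.35 ± 0.22 and 1.10 ± 0.27 (1.53) and Cxcl10 at 1.04 ± 0.31 and 1.92 ± 0.55 (0.84). These rest on few fragments, 4 to 160, 6 to 61 and 22 to 102 per sample, and with a pseudocount of 1 the log2 fold changes were 0.83, 0.64 and 0.52, each still called. Among those lower, Psmb8, a subunit of the immunoproteasome, fell from 114.3 ± 12.6 to 74.6 ± 4.47 FPKM (log2 fold change -0.61, limma adjusted p = 0.000249), and Parp14 fell with -0.39 (limma adjusted p = 0.000837). Of 12 genes that answer mainly to type I interferon 10 were tested, 4 were called as higher and none as lower, against the same 17.6% and 19% of all genes. These were Oas1a, Oasl2, Rtp4 and Ifit1, with log2 fold changes of 2.91, 2.01, 1.44 and 0.60, and in CD8+4T1 their means were 0.21 to 1.31 FPKM. With a pseudocount of 1 they were at 1.26, 1.01, 0.82 and 0.39, each still called, and Oas1a rested on 2 to 90 fragments per sample. The rise of these low genes came with the higher level of the 4T1 markers given before, and the part of the latter in it was not tested.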

How the data were processed

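RNA of CD8+ T cells that had met 4T1 cells was compared between 5 CD8+4T1 and 5 CD8+4T1+NaAc samples, grouped by their labels. The authors deposited FPKM for 57825 genes, 1 column per sample. The gene length that the authors deposited beside them is in bases, an other column with no normalization. The submitters' processing notes name fastp, HISAT2 2.0.5, StringTie 1.3.3b and featureCounts 1.5.0-p3. Genome build, annotation and strand setting are not given in the sources used here. FPKM are not counts, so the test of the study's methods, DESeq2, was not used. Multiplying FPKM by gene length and by a constant per sample gave whole fragments for all values (within 0.1), and with them the fragments behind each value; voom on these fragments called 6092 of 15710 genes.

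The 15710 genes whose mean reached 0.5 FPKM were fitted on log2(FPKM + 0.1) by limma 3.58.1 (R 4.3.3), with variance trend and robust moderation. Tests were two-sided, and a call required a p under 0.05 after Benjamini-Hochberg adjustment over these genes. The pseudocount makes the change of low genes look smaller. The fit was first tested on simulated data. Intervals are at 95% and, like the fragment numbers, do not cover errors in assigning fragments to genes. Alternatives were pseudocounts of 1 and 0.01, no filter and a mean of at least 5 FPKM, the same total FPKM, median-ratio scaling, scaling to 10 T cell markers, limma without trend, array weights, a replicate block, voom, and each sample left out. The members and lists were chosen with earlier results of these data known. Named genes were all members and up to 5 called genes with the largest change per list. To these came Ifng, Ifngr1, Ifngr2, Jak1, Jak2, Socs1, Irf8 and the 5 genes most like the members. The cell markers, the overlapping genes, Ptpn2 and Ptpn6 named beside results were added. The other signalling genes enter the counts only and have no values in the text. Promoter windows are from RefSeq (GRCm38.p6) and matched by symbol for 8 of 10 members. Proteins of the members were not analysed here. Figures were drawn with matplotlib 3.10.9.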

Additional observations from a re-analysis of the deposited data

Results flagged for a closer look

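In 13 of 82 groups of 5 samples checked, the highest or lowest sample lay more than 0.71 of the group's range from its neighbour. Chance gives about 4.1 such groups. This number does not allow for genes chosen from these same data, such as the 5 most like the members. In 10 of the 13 groups, CD8+4T1+NaAc replicate 1 was the lowest of its group. It stood apart in this way for the members Gbp4 (0.886 of the range), Irgm1 (0.815) and Igtp (0.740) and for the related GTPase Ifi47 (0.766). The same sample stood apart for the genes most like the members, Nit2 (0.866), Eif3i (0.749), Elp2 (0.803), Upp1 (0.781) and Atp5c1 (0.800), which were chosen for following the members and share this sample with them. It was also the lowest in the number of genes above 0 FPKM (0.916), at 20233. CD8+4T1 replicate 1 was the lowest of its group in that number (0.848), at 22291, and for Psmb8 (0.720). CD8+4T1+NaAc replicate 2 had the most fragments of its group (0.747), at 18853726. For Gbp4 the fold change was larger without the sample that stood apart, and for Igtp and Irgm1 it changed from just below to just above 0; neither was called in either case.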

How the results depend on the processing

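Gbp5 was lower and called under all 22 alternatives (log2 fold change -0.67 to -0.44, limma adjusted p 3.29e-05 to 0.0029), and Gbp4 was higher under all 22 and called under 16 (0.25 to 0.46, adjusted p 8.15e-05 to 0.0614). Gbp7 lost its call under no filter (adjusted p = 0.0848), without trend or robust moderation (0.0723), with voom (0.317) and under the rescalings given next. At the same total FPKM and on the T cell marker scale the sign reversed for Gbp2 (0.012 and 0.012), Gbp3 (0.030 and 0.030), Gbp7 (0.0081 and 0.0079), Irgm1 (0.14 and 0.14), Irgm2 (0.084 and 0.084), Igtp (0.16 and 0.16), Irf1 (0.16 and 0.16), Ifngr2 (0.13 and 0.13), Jak2 (0.15 and 0.15), Irf8 (0.13 and 0.13) and Elp2 (0.060 and 0.060), where the median of all genes was 0.15. With array weights it reversed for Irgm1 (0.017), Igtp (0.020), Irf1 (0.0080), Ifngr2 (0.037) and Jak2 (0.023), and with voom for Irgm1 (0.052), Igtp (0.074), Irf1 (0.074), Ifngr2 (0.049), Jak2 (0.065) and Irf8 (0.041). With single samples left out the fold change ran from -0.072 to 0.058 for Irgm1, -0.060 to 0.080 for Igtp, -0.054 to 0.045 for Irf1, -0.11 to 0.022 for Ifngr2, -0.078 to 0.035 for Jak2, -0.17 to 0.014 for Elp2 and -0.0023 to 0.13 for Atp5c1. Without replicate 1 of both groups it was 0.037 for Irgm1, 0.040 for Igtp, 0.018 for Irf1, 0.083 for Ifngr2 and 0.054 for Jak2. Beyond the rescalings, the cause of these sign changes was not tested; none of the genes that reversed was called where it reversed. Of 826 values of 38 named genes, 721 kept direction and side of the threshold, 41 lost and 16 gained a call and 48 reversed.

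With single samples left out, 1 to 2 members were called, and 1 without CD8+4T1 replicate 5 or CD8+4T1+NaAc replicates 2, 3 or 4. Of the other GTPases 3 to 7 were then called, 7 without CD8+4T1+NaAc replicate 1. Beside these stand 4947 to 6965 of all 15710 genes. Array weights called 8 of the other GTPases and 48.3% of all genes. At a mean of at least 5 FPKM, 3 type I interferon targets remained to be tested, Isg15, Mx1 and Bst2, and 0 were called by limma. None of them had an unadjusted p under 0.05 in the fit to all 15710 genes. Of all genes, 3733 of the 7800 tested at this mean were called, beside 5742 of 15710 in the main fit. The labels number both groups 1 to 5, but same-numbered samples did not deviate together (r -0.03 to 0.07 over 15710 genes), so the numbers were not read as pairs; with them as a replicate block 3 members and 5399 genes were called. Among the members, depth limits Gbp6 most, at 128 to 248 fragments.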
